A study of Homo sapiens with 4 samples.

Results

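The cells described here are a minority of human microglia-like cells in culture that carried mRNA of CRABP2, TIMP3, FBP1, MMP7 and related genes. They were chosen by their measured counts, as the cells with at least 1 unique molecular identifier (UMI, a counted mRNA molecule) of at least 4 of 7 genes, which were CRABP2, TIMP3, TM4SF19, FBP1, MMP7, SPOCD1 and DCSTAMP. The rule took 1323 of 16937 kept cells (7.81%), here called the members, and left 15614 other cells. Library 1 gave 747 members of 9081 cells and library 2 gave 576 of 7856. Because measured levels chose the members, every difference in level between members and other cells is a description of the choice and was not tested. Tests were run on the shares and on the responses to treatment.

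The cultures were made from the human embryonic stem cell line H9, an established line, through free-floating monocyte-like precursors, which were collected on day 25 and matured for 7 days in a medium with TGF-β, IL-34, M-CSF and cholesterol. All 12 cultures came from this 1 unmodified line, and actinomycin D, which stops transcription, was present at collection of every culture. There were 4 conditions with 3 cultures each, numbered 1 to 3. Ctrl cultures received DMSO for 22 h and PBS for the last 6 h, Sema cultures 2 µM semagacestat, which blocks γ-secretase, for 22 h and then PBS, LPS cultures DMSO and lipopolysaccharide at 200 ng/mL for the last 6 h, and SemaLPS cultures both agents. The study addressed what blocking γ-secretase changes in resting and in LPS-stimulated cells. Cultures were wells of 1 line, so the tests measure the spread between these wells.

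Several of the genes of the rule belong to the ways in which macrophages remodel matrix and fuse. DCSTAMP is a membrane protein needed for the fusion of macrophages into osteoclasts and giant cells, MMP7 is the secreted protease matrilysin, and TIMP3 is an inhibitor of metalloproteinases that binds to the matrix. CRABP2 carries retinoic acid to its nuclear receptor, FBP1 is an enzyme of gluconeogenesis, TM4SF19 is a tetraspan membrane protein, and SPOCD1 is a nuclear protein known from DNA methylation of transposons in germ cells.

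The DNA before the starts of the genes of the rule was read from RefSeq promoter windows (GRCh38.p14), which span 250 bases before to 50 after the start and held 6 of the 7 genes. The letters of the AP-1 motif, bound by Fos, Jun and ATF family factors, were searched as TGACTCA on both strands (TGAGTCA on the other), and occurred in windows of 2 of these 6 genes, MMP7 and TM4SF19. Of 35116 windows in the table, 1738 (4.95%) held it, and by gene 1651 of 27305 (6.05%) did. Both sequences are shown because they hold the motif. Whether AP-1 factors act on these genes was not tested. They are the bases before the start, read on the minus strand, from chr11:102530748-102530997 for MMP7 and chr3:196338389-196338638 for TM4SF19, with the motif in capitals.
MMP7: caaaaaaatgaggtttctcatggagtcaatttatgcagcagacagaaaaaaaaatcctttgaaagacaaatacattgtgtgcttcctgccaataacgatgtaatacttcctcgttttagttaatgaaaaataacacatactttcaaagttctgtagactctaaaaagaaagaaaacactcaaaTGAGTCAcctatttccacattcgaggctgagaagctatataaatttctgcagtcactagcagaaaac
TM4SF19: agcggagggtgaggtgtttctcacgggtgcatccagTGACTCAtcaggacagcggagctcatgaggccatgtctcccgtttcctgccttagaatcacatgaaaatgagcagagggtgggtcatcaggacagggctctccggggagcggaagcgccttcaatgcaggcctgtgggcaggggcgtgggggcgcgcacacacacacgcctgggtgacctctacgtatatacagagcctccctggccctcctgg
The motif began 67 bases before the start in MMP7 and 214 before it in TM4SF19, in opposite orientation. A match of letters is not a bound site.

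The libraries held 28943 barcodes and 900761329 UMIs, 417471013 in library 1 and 483290316 in library 2. A culture gave 1144 to 1979 kept cells and 58 to 198 members. Summed over a culture, the members carried 2942897 to 8725039 UMIs. The libraries shared 91 barcodes, 24 of them among kept cells. No doublet caller was run: cells with a second strong hashtag were left out, and doublets within a culture were not removed. Members were deeper than the other cells in 12 of 12 cultures, with 1.16 to 1.60 times the median UMIs, and the median count of the leading hashtag was higher in 10 of 12 cultures (0.903 to 1.34 times). Median mitochondrial shares were 8.28 to 8.78% in members and 7.78 to 8.31% in other cells. The part of these differences in the results was not tested, except where values without the deepest cells or against other cells of matched depth are given.

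The members carried the mRNA of microglia and macrophages. Of 13 fixed markers of these cells all 13 had at least 5 CPM (counts per 1000000, the UMIs of a gene per 1000000 UMIs of the same cells), and their sum was 6481 to 7931 CPM per culture in the members and 8871 to 9847 in other cells. Of the 13, 8 were lower and 2 higher in members of every culture, beside 17.9 and 12.7% of 9495 genes with at least 5 CPM. C1QA had 618 CPM in cells with no gene of the rule and 152 in those with 6 or 7. TYROBP, the adaptor of TREM2, had a mean of 2187 CPM in members and 1909 in other cells over the 12 cultures, CD68 had 534 and 421, the transcription factor SPI1 had 280 and 309, and the receptor CSF1R had 112 and 140. Markers of granulocyte precursors, mast cells, erythroid cells and pluripotent cells summed to under 1 CPM in the members of every culture. Neural markers summed to 56.4 to 94.4 CPM in members and 12.9 to 23.3 in other cells, mostly from TUBB3 and NES, with DCX, GFAP and STMN2 at 0. Of the endothelial list PECAM1, which myeloid cells also carry, was above 5 CPM (113 and 54.5) and KDR was at 0. Stromal markers summed to 9.39 to 28.1 CPM in members and 3.95 to 58.5 in other cells, with DCN at 0. Epithelial markers summed to 28.3 to 59.5 and 37.4 to 75.1 CPM, with CLDN4, KRT19 and KRT7 at 0.

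Within the members the genes of the rule differed in how often they were seen. TIMP3 was detected in 92.3% of members, MMP7 in 92.4%, DCSTAMP in 87.0%, SPOCD1 in 73.4%, FBP1 in 72.0%, TM4SF19 in 52.4% and CRABP2 in 22.1%. The corresponding shares of other cells, where free RNA of the pool can add UMIs, were 25.1, 27.5, 10.3, 5.78, 9.57, 3.22 and 0.506%. CRABP2 was thus absent from most members by this measure, and TIMP3 and MMP7 made up most of the signal. In members with the gene, the median was 23 UMIs of MMP7 and 13 of TIMP3, and 2 or 3 UMIs of the other 5 genes. When each cell was thinned to 10000 UMIs, TIMP3 was seen in 74.5% of members and 12.5% of other cells, MMP7 in 74.9 and 13.6%, DCSTAMP in 50.7 and 4.58%, and CRABP2 in 11.1 and 0.177%. Of the 16588 cells deep enough for that, 532 (3.21%) still met the rule.

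The threshold cut through a gradual distribution. No gene of the rule was seen in 7201 cells, 1 in 5112, 2 in 2216 and 3 in 1085, just outside it. Among the members 589 (44.5%) had 4, just inside, 385 (29.1%) had 5, 221 (16.7%) had 6 and 128 (9.67%) had all 7. The median UMIs per cell rose with this number, from 27667 at 0 to 34587 at 3, 35774 at 4 and 44367 at 7.

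The summed levels of the genes of the rule differed among conditions. MMP7 in members was 949, 1432 and 1604 CPM in Ctrl cultures 1 to 3, 701, 1131 and 1688 in Sema, 1477, 1936 and 2595 in LPS, and 1702, 1784 and 2220.2 in SemaLPS. TIMP3 was 597, 917 and 1279 CPM in Ctrl, 793, 913 and 956 in Sema, 378, 575 and 560 in LPS, and 471, 663 and 676 in SemaLPS. DCSTAMP was 113, 129 and 161 CPM in Ctrl, 105, 100 and 124 in Sema, 60.0, 74.6 and 70.3 in LPS, and 70.1, 86.9 and 80.9 in SemaLPS. For DCSTAMP all 6 cultures with LPS lay below the 6 without it. TIMP3 was lower in every LPS than in every Ctrl culture, by a narrow margin, and in every SemaLPS than in every Sema culture, while MMP7 overlapped between Ctrl and LPS.
SPOCD1 was 66.3, 85.4 and 110 CPM in Ctrl and 38.1, 41.8 and 57.4 in LPS. CRABP2 lay between 12.6 and 33.8 CPM in the 12 cultures, TM4SF19 between 37.4 and 86.6, and FBP1 between 74.1 and 134. In other cells CRABP2 did not exceed 0.501 CPM and TIMP3 lay between 27.3 and 58.3, while MMP7 was 27.1, 27.0 and 22.9 CPM in Ctrl and 89.0, 128 and 116 in LPS.

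The members made up 6.14, 12.4 and 11.9% of the cells of Ctrl cultures 1 to 3, 5.75, 9.13 and 10.0% in Sema, 5.35, 7.68 and 6.81% in LPS, and 3.81, 6.31 and 9.51% in SemaLPS. The means were 10.2 ± 3.48, 8.30 ± 2.25, 6.61 ± 1.18 and 6.54 ± 2.86% (SD, n = 3 each). All conditions overlapped, and the cultures numbered 1 were lowest in each condition. Cultures numbered 1 had a mean of 5.26%, those numbered 2 had 8.89% and those numbered 3 had 9.55% (n = 4 each), and the labels give no meaning for the numbers. The exact 95% binomial interval (Clopper-Pearson, counting error only) was 2.91 to 4.90% at the lowest share and 10.6 to 14.4% at the highest.

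**Figure D1:**
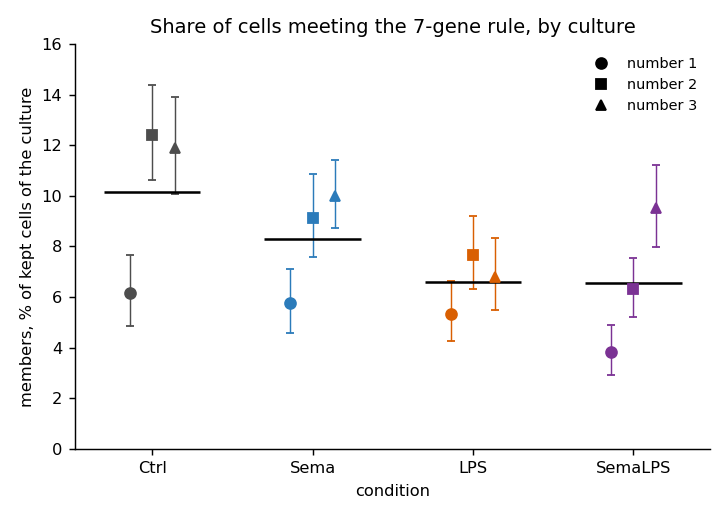
Members as a percentage of the kept cells of each culture, by condition, with the exact 95% binomial interval of each culture as a bar. The 12 cultures lie between 3.81 and 12.4%, and number 1 is the lowest in all 4 conditions.

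The share showed no detectable shift with the inhibitor. Sema minus Ctrl was −1.85 percentage points (two-sided exact permutation test p = 0.5, adjusted p = 0.8 over 4 tests of the share), and SemaLPS minus LPS was −0.06 (exact p = 1.0). The sign of the second turned without LPS 2 (0.47), LPS 3 (0.03), SemaLPS 1 (1.30) or SemaLPS 2 (0.05). Over both levels of LPS the inhibitor difference was −0.96 points (exact permutation within levels, p = 0.495, smallest possible 0.005). SemaLPS minus Sema was −1.75 points (exact p = 0.6, adjusted p = 0.8), and 3 cultures against 3 cannot give a p below 0.1.
LPS minus Ctrl was −3.54 points and is given without a test, since genes of the rule themselves responded to LPS. Summed over all cells of a culture, TIMP3 fell by 0.95 on the log2 scale (edgeR adjusted p = 0.0232), SPOCD1 fell by 1.13 (adjusted p = 0.0170) and DCSTAMP fell by 1.13 (adjusted p = 0.00458). Whether LPS moved cells across the rule was not tested. It bears on every comparison with LPS below, and on SemaLPS minus Sema above. For SemaLPS against Sema over all cells no gene of the rule passed. SPOCD1 changed by −0.78 (edgeR adjusted p = 0.0767), DCSTAMP by −0.60 (adjusted p = 0.0865) and MMP7 the other way by 0.68 (adjusted p = 0.191). The p for that share thus cannot tell a change in cells from a change in these genes.

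Outside the genes of the rule, the members carried higher levels of most measured genes of lipid-associated macrophages and of some genes of the lysosome and of matrix. Among 5175 genes with at least 20 CPM in the members, 56 (1.08%) were over 2-fold higher than in other cells of the same culture in all 12 cultures. Among 5288 genes with at least 20 CPM in other cells, 23 (0.435%) were over 2-fold lower in all 12. Log2 ratios below are member over other cells, with 1 CPM added to each, as the median of the 12 cultures.

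CHIT1, the chitinase of lipid-laden macrophages, was 62.5, 50.2 and 82.4 CPM in members of Ctrl cultures 1 to 3, 77.8, 90.6 and 123 in Sema, 77.0, 67.7 and 102 in LPS, and 81.0, 87.7 and 110 in SemaLPS. In other cells it lay between 4.69 and 8.22 CPM, so that no ranges overlapped, and the log2 ratio was 3.59 (2.54 to 4.08). The related lectin CHI3L1 was 837 to 2227 CPM in members and 117 to 403 in other cells (2.42). GAL, which encodes the neuropeptide galanin, was 60.5, 136 and 132 CPM in members of Ctrl, 97.3, 69.4 and 276 in Sema, 82.5, 146 and 150 in LPS and 106, 118 and 144 in SemaLPS, with a mean of 6.22 CPM in other cells (3.83). GAL varied more between cultures than CHIT1 did, with its highest level in Sema culture 3.

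Other genes of this set fell into a few roles. MGST1, a glutathione transferase, had means of 54.3 CPM in members and 4.33 in other cells, and GPD1, an enzyme linking glycolysis to lipid synthesis, had 28.4 and 1.69. COL6A1 and COL6A2, chains of collagen VI, had 139 and 18.1, and 52.7 and 4.78 CPM. The cross-linking enzyme TGM2, a target of retinoic acid, had 38.6 and 2.84, and the metalloproteinase ADAM12, known from the fusion of myoblasts, had 24.3 and 3.67. The chemokine CCL22 had 36.6 and 3.72 CPM, and IGFBP2, which binds insulin-like growth factors, had 65.1 and 10.1.
AQP9, a channel for water and glycerol, had 92.5 and 18.8 CPM, and the actin-associated RAI14 had 33.2 and 1.69. The long noncoding LINC02244 had the highest median log2 ratio (3.90), with 48.3 CPM in members and 2.03 in other cells. IL1RN, the secreted antagonist of the interleukin-1 receptor, had 425 and 104 CPM with a log2 ratio that ranged from 1.35 to 4.53, a wider range than that of CHIT1.

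**Figure D2:**
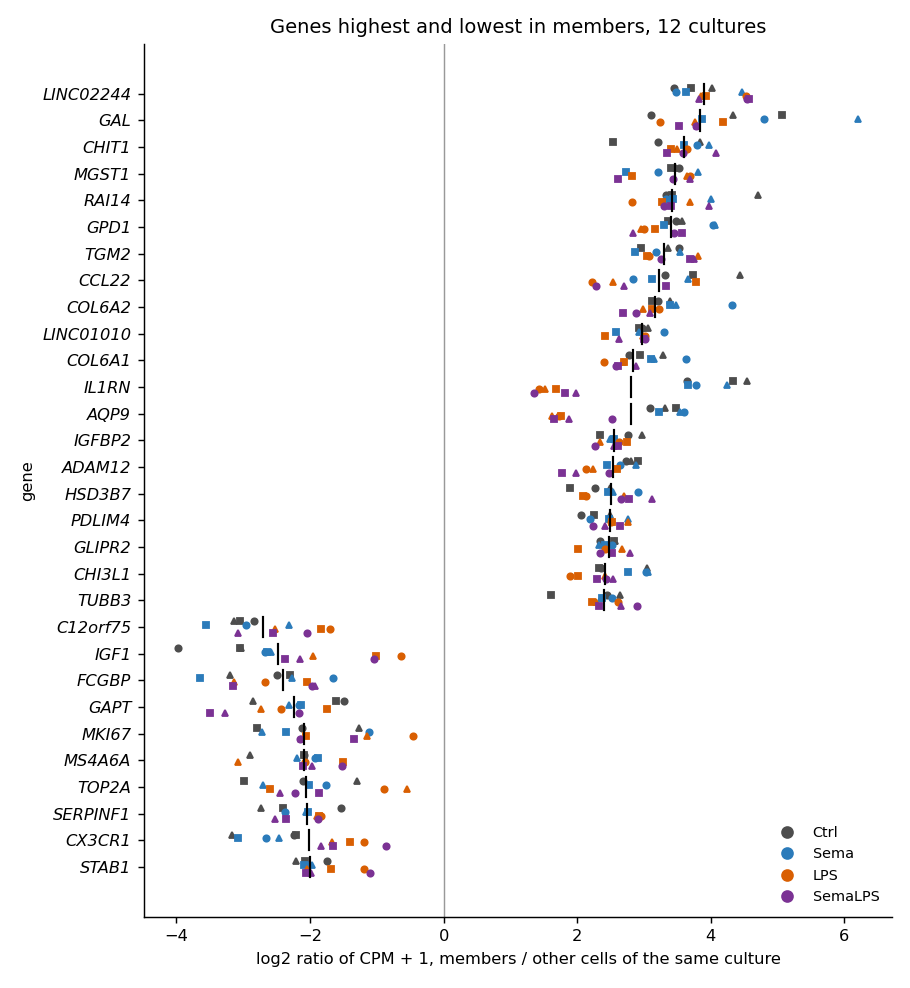
Log2 ratio of CPM in members over CPM in other cells of the same culture (1 CPM added to each) for the named genes, with 1 point per culture. The ratios of IL1RN spread from 1.35 to 4.53, and those of CHIT1 from 2.54 to 4.08.

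Of the list of lipid-associated macrophage genes, 16 of the 17 with at least 5 CPM were higher in members of every culture and none was lower, beside 12.7% of 9495 such genes higher and 17.9% lower. The median log2 ratio of the list was 0.98. The exception was FABP4, higher in 11 of 12 cultures. CD9, a tetraspanin of foam cells, was 3754, 4018 and 4346 CPM in members of Ctrl and 2537, 2370 and 3079 in LPS, and 1496, 1721 and 1775 against 1034, 1207 and 1257 in other cells. LPL, the lipoprotein lipase, had 604 and 283 CPM, GPNMB, a glycoprotein of lysosomal stress, 347 and 148, and the lysosomal lipase LIPA 903 and 458. SPP1 (osteopontin), APOE and TREM2 were higher by smaller log2 ratios, 0.52, 0.54 and 0.43. PPARG, the nuclear receptor of lipid uptake, had 75.2 and 29.5 CPM, and 5 of the 12 measured genes of the PPAR list were higher in every culture and none lower.

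Genes of osteoclasts and of cell fusion were split. Of all measured genes 12.7% were higher and 17.9% lower in every culture, which stands beside each count here. Of 14 measured osteoclast genes, 7 were higher and 1 was lower in every culture (median log2 ratio 0.36). ACP5, the tartrate-resistant acid phosphatase, had 83.1 CPM in members and 15.8 in other cells (2.36), the proton pump subunit TCIRG1 had 102 and 58.0, and its osteoclast partner ATP6V0D2 had 20.5 and 11.1. The lower one was CKB, the brain creatine kinase, with 9.52 and 30.1 CPM (−1.75). Of the tetraspan and adhesion genes 12 of 20 were higher in every culture and none lower, with integrins ITGB5 (80.5 and 31.4 CPM) and ITGAX (98.8 and 44.8 CPM) among them. Lysosomal genes were higher in 10 and lower in 2 of 22, led by SCARB2, a receptor for lysosomal glucocerebrosidase (265 and 106 CPM).

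Retinoid and matrix genes beyond the rule were partly higher, beside 12.7% of all measured genes higher and 17.9% lower in every culture. Of 8 measured retinoid genes, 4 were higher in every culture, which were ALDH1A2, the enzyme that makes retinoic acid (46.2 and 9.0 CPM), TGM2, DHRS3 (13.6 and 6.83) and RDH10 (13.9 and 7.78). RDH11 was lower (log2 ratio −0.49), and CRABP1, CYP26A1, LRAT and STRA6 were at 0 in members of every culture. Of 11 matrix protease genes 5 were higher and 2 lower. The urokinase receptor PLAUR had 856 and 347 CPM and the metalloproteinase MMP19 had 14.8 and 2.62, while MMP2 was lower (log2 ratio −0.57). Of 20 glycolysis and gluconeogenesis genes 5 were higher and 3 lower (median 0.04), the lower count near the share of all genes. HK3, a myeloid hexokinase, was at 7.01 and 0.721 CPM.
Among 17 immediate-early genes 7 were higher and 4 lower. ATF3, a stress-induced factor of the AP-1 family, was 97.3 to 208 CPM in members and 17.5 to 39.8 in other cells, and the zinc finger factor EGR2 was 13.3 to 48.2 and 2.31 to 14.1. JUN was 50.3 to 78.5 CPM in members and 28.0 to 43.6 in other cells, so that neither ATF3 nor JUN overlapped between them. Other genes of the AP-1 family are not described here.

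Genes of resting microglia, of antigen presentation and of division were lower in the members. Of 17 homeostatic microglia genes 10 were lower in every culture and 1 was higher (median log2 ratio −0.79), beside 17.9 and 12.7% of all measured genes. The fractalkine receptor CX3CR1 was 40.4, 37.2 and 15.7 CPM in members of Ctrl, 36.5, 23.0 and 35.4 in Sema, 25.0, 24.4 and 13 in LPS, and 34.1, 17.0 and 13 in SemaLPS. In other cells it was 195, 175 and 149 CPM in Ctrl and 58.8, 66.2 and 43.7 in LPS. The members of every culture lay below the other cells of every culture. AIF1, which encodes the microglial marker IBA1, was 213 to 427 CPM in members and 668 to 1037 in other cells, and OLFML3 had means of 27.4 and 100.2.

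All 9 measured class II genes of the major histocompatibility complex were lower in members of every culture (median −1.55), beside 17.9% of all measured genes. HLA-DRA was 20.3 to 65.0 CPM in members and 114 to 264 in other cells, and the invariant chain CD74 had means of 205 and 530. Markers of dendritic cells were lower or split, with FSCN1 at 121 and 264 CPM and CD1C at 15 and 25.4. Of 16 S phase genes 13 were lower in every culture, and of 16 genes of G2 and mitosis 14 were. The proliferation marker MKI67 had means of 17.6 CPM in members and 58.0 in other cells, and the topoisomerase TOP2A had 22.0 and 82.1. IGF1, a trophic factor of microglia, had 3.01 and 21.9 CPM, and STAB1, a scavenger receptor, had 29.6 and 107. LYZ, the lysozyme of monocytes, was higher (406 and 116 CPM), while the calgranulin S100A9 had 304 and 530. These means take cultures with and without LPS together. Of 5 measured monocyte markers 1 was higher and 0 lower in every culture.

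Many of these levels moved in steps with the number of genes of the rule. From cells with 0, 1, 2, 3, 4 and 5 of them to cells with 6 or 7, the mean CHIT1 level over cultures was 3.82, 4.90, 8.63, 18.9, 32.2, 56.9 and 189.8 CPM. CHI3L1 went from 185 at 0 to 590 at 3, 880 at 4 and 2300.2 at 6 or 7, and CD9 from 908 to 2504, 3098 and 3632. CX3CR1 went the other way, with 149 CPM at 0, 64.6 at 3, 35.6 at 4 and 19.4 at 6 or 7. CHIT1, CHI3L1 and CD9 were higher at 4 than at 3 in 12 of 12 cultures, and CX3CR1 in 0 of 12. MKI67 had 64.3 CPM at 0, 29 at 3, 14.2 at 4, 27.5 at 5 and 12.3 at 6 or 7, with no steady order within the members.

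**Figure D3:**
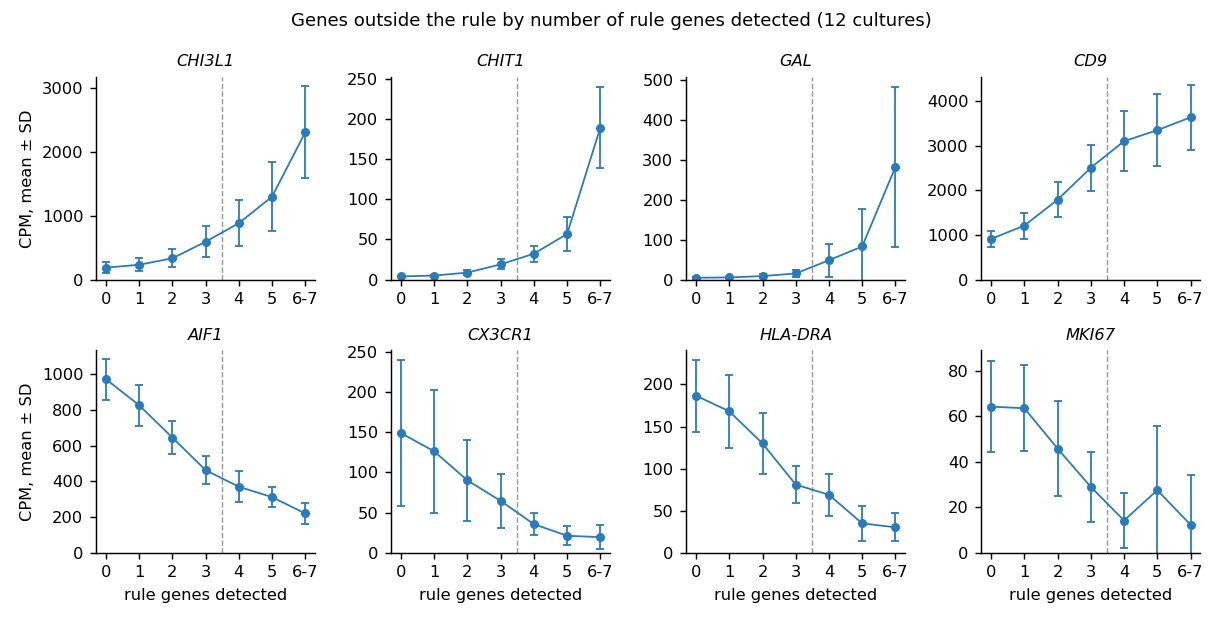
Mean CPM of named genes over the 12 cultures by the number of genes of the rule seen in a cell, with the SD over cultures as a bar and a dashed line at the threshold of 4. CHIT1 goes from 3.82 CPM at 0 genes to 189.8 at 6 or 7, and CX3CR1 from 149 to 19.4.

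The question of the LPS comparison is how stimulated cells differ from resting ones, here within the members. In the members LPS raised cytokines, chemokines and regulators of NF-κB, and lowered receptors of resting microglia. Of 11361 genes tested with edgeR (quasi-likelihood test, Benjamini-Hochberg adjusted p under 0.05), 2871 (25.3%) changed, 1520 upward (13.4%) and 1351 downward (11.9%). The changes over 2-fold were 458 rises and 366 falls. With 15155 genes tested in other cells, whose sums were deeper, 9163 (60.5%) changed.

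IL1B, which encodes interleukin-1β, was 94.1, 96.8 and 53.8 CPM in members of Ctrl cultures 1 to 3 and 1854, 1086 and 1062 in LPS. It rose by 4.12 ± 0.30 (SE) on the log2 scale (adjusted p = 1.23e-08), with no overlap. The adaptor TRAF1 rose by 4.16 ± 0.17 (adjusted p = 4.20e-11), and the chemokines CCL2, CCL4 and CCL3 rose by 3.85, 3.78 and 3.67. Of 29 tested NF-κB and cytokine genes, 28 rose and none fell, beside 13.4% of all genes, with a median of 3.27. The exception was IL10, whose difference was −1.66 (adjusted p = 0.064).

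GPR34, a lysophospholipid receptor of microglia, was 170.2, 170.4 and 164 CPM in members of Ctrl and 52.7, 48.1 and 36.9 in LPS. It fell by 1.79 ± 0.10 (adjusted p = 4.34e-10). The adenosine receptor ADORA3 fell by 2.17 ± 0.27 (adjusted p = 6.72e-06), the lysophosphatidic acid receptor LPAR6 changed by −1.93 and the phagocytic receptor MERTK by −1.77. Of 17 homeostatic genes 7 fell and 1 rose, and of 17 lipid-associated genes 9 fell and 1 rose, beside 11.9% of genes falling. Of 19 interferon genes 8 rose, of 20 tetraspan and adhesion genes 10 rose and 3 fell, and of 15 osteoclast genes 4 fell and 1 rose. Of 8 metallothionein genes, which bind zinc and copper, MT2A and MT1M rose by 2.59 (adjusted p = 0.00469) and 3.69 (adjusted p = 0.0306). Without LPS culture 1 the values were 1.46 (adjusted p = 0.0611) and −0.83.

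With the inhibitor present, SemaLPS against Sema, 2682 of 11361 genes changed (23.6%), 1416 upward (12.5%) and 1266 downward (11.1%). Of the NF-κB and cytokine genes 26 of 29 rose, with a median of 2.78. Of the homeostatic genes 7 of 17 fell and 1 rose, and of the lipid-associated genes 9 of 17 fell and 1 rose, the same counts as without the inhibitor.

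The response of the members was then set against that of other cells of the same cultures, as the difference of the LPS changes, tested in 1 edgeR fit with the culture as a block over both levels of the inhibitor. Changes of single genes given beside this difference are LPS against Ctrl in separate fits, so subtracting them does not give the tested value. Of 14673 genes 2238 (15.3%) differed, 915 (6.24%) with a higher and 1323 (9.02%) with a lower change in the members. Of the 2179 of them that all 3 fits held, the change was in the same direction and smaller in members for 1565 (71.8%), in the same direction and larger for 131 (6.01%) and of opposite sign for 483 (22.2%). Of all 11349 genes in these fits it was smaller for 56.9%, larger for 24.7% and of opposite sign for 18.4%. With other cells thinned to the members' total UMIs, 1540 of 11840 genes differed, 740 higher and 800 lower. Against other cells matched in UMIs per cell, and only as many as the members, 761 genes differed, of 11841 tested, with the split turned to 410 higher and 351 lower. The split also turned in library 1 alone (580 and 546), in library 2 alone (483 and 436) and in 9 of 12 fits that left out 1 culture, where 40.6 to 56.9% of calls were higher. Those were the fits without Ctrl 2, Ctrl 3, LPS 1, LPS 2, Sema 1, Sema 3, SemaLPS 1, SemaLPS 2 and SemaLPS 3.

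Among the 20 genes with the largest differences at 20 CPM or more, IL1RN had the widest. It was 173, 306 and 383 CPM in members of Ctrl cultures 1 to 3, 208, 188 and 264 in Sema, 641, 570 and 766 in LPS and 434, 587 and 579 in SemaLPS. In other cells it was 12.9, 14.3 and 15.6 CPM in Ctrl, 14.2, 13.9 and 13 in Sema, 237, 176 and 267 in LPS and 170, 166 and 146 in SemaLPS. Members thus started higher and ended higher, with a change of 1.25 against 4.20 in LPS against Ctrl and a difference of −2.63 ± 0.12 (adjusted p = 3.53e-14). Against other cells matched in UMIs the difference was −1.56. IL1RN is also one of the genes named above for its level in members.

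The same was seen for other NF-κB genes. C15orf48, a mitochondrial protein induced by inflammation, was 998, 1007 and 959 CPM in members of Ctrl and 2719, 2629 and 2915 in LPS, against 295, 340 and 338, and 2313, 2276 and 2798 in other cells. The difference was −1.58 ± 0.04 (adjusted p = 3.02e-18). BCL2A1, an inhibitor of apoptosis, was 140, 163 and 177 CPM and 394, 331 and 390 in members, against 37.8, 50.7 and 40.5, and 304, 313 and 290 in other cells (difference −1.78 ± 0.07, adjusted p = 1.12e-14). Both genes began 2-fold or more above other cells and ended closer to them.

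In other genes the members ended below other cells. The neutrophil chemokine CXCL8 was 82.2, 75.5 and 63.5 CPM in members of Ctrl and 1047, 720 and 534 in LPS, and 44.4, 47.4 and 36.5 against 1207, 1064 and 1059 in other cells (difference −1.58). CD83, a marker of activated antigen-presenting cells, was 247, 288 and 193 and then 731, 589 and 533 CPM in members, against 160, 183 and 152 and then 1108, 1007 and 938 (difference −1.46). Of 30 NF-κB and cytokine genes tested, 18 had a lower and none a higher change in members, with a median of −0.67, beside 9.02% of all genes lower. Glycolysis genes had 7 lower and none higher of 23, and lipid-associated genes 7 lower and 2 higher of 17.

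Several genes that LPS lowers also changed less in the members. DAB2, an endocytic adaptor, was 406, 410 and 385 CPM in members of Ctrl and 188, 227 and 185 in LPS, and 660, 650 and 663 against 125, 145 and 133 in other cells (difference 1.19 ± 0.05, adjusted p = 1.12e-14). The order of members and other cells was thus reversed, with members lower without LPS and higher with it. CEBPA, a myeloid transcription factor, had changes of −1.34 in members and −2.65 in other cells (difference 1.45), and LPL had −0.38 and −1.20 (0.97). CX3CR1 had −0.44 in members (adjusted p = 0.377) and −1.42 in other cells (difference 1.04).
Of 19 homeostatic genes 9 had a higher and none a lower change in members (median 0.33), and of 16 S phase genes 9 had a higher and none a lower one (median 0.63), beside 6.24% of all genes higher. Of 18 cholesterol synthesis genes 6 had a higher and none a lower change. As lists, S phase and cholesterol synthesis were not lowered throughout by LPS in members. The S phase median was 0.54 in LPS against Ctrl (1 rise, 0 falls) and −0.28 in SemaLPS against Sema (0 calls). The cholesterol synthesis medians were 0.09 (2 rises, 2 falls) and 0.17 (5 rises, 1 fall). SQLE, a rate-limiting enzyme of cholesterol synthesis, had a change of −0.04 in members and −0.44 in other cells (difference 0.53, adjusted p = 5.1e-08).

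The genes through which cells sense LPS were looked up in a list made after these results were seen. Of 12 such genes 2 were higher and 2 lower in members of every culture, near the shares of all measured genes (12.7 and 17.9%). CD14, the co-receptor that hands LPS on, had means of 56.4 CPM in members and 133 in other cells, and TLR4, the receptor itself, had 56.8 and 86.2. LY96, the partner of TLR4, had 119 and 120 CPM, and the adaptor MYD88 had 33.6 and 21.8. CD14 rose with LPS in members by 1.42 (adjusted p = 4.3e-06), and its response did not pass the test of the difference (0.30, adjusted p = 0.0899). Of the 12 genes, 2 had a higher and 4 a lower change in members, beside 6.24 and 9.02% of all genes. TLR4 had changes of −0.36 in members (adjusted p = 0.0655) and 0.33 in other cells (difference −0.64, adjusted p = 1.79e-05), and LY96 had −0.17 and −0.46 (0.25, adjusted p = 0.00463). IRAK3, an inhibitor of this pathway, had 1.15 and 1.83 (−0.79, adjusted p = 0.00198). The part of these levels in the responses was not tested.

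A few genes of alternative activation were high in members at rest. Of 15 tested 5 had a lower and 1 a higher LPS change in members, beside 9.02 and 6.24% of all genes. Only 5 of the 19 genes of this list had at least 5 CPM in either set of cells, and FCER2 was at 0 in all members. Of these 5, 4 were higher in every culture, beside 12.7% of all measured genes. They were CCL22, TGM2, IL1RN and CHI3L1. CCL22 was 22.8, 27.2 and 33.7 CPM in members of Ctrl and 41.0, 55.1 and 53.0 in LPS. In other cells it was 1.39, 1.12 and 0.610, and then 8.05, 3.07 and 8.35 CPM, so that members were higher in every culture. The changes were 0.88 and 2.84 (difference −1.39, adjusted p = 0.00155). CHI3L1 rose by 0.64 in members (adjusted p = 0.0429) and 1.26 in other cells (difference −0.61).

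**Figure D4:**
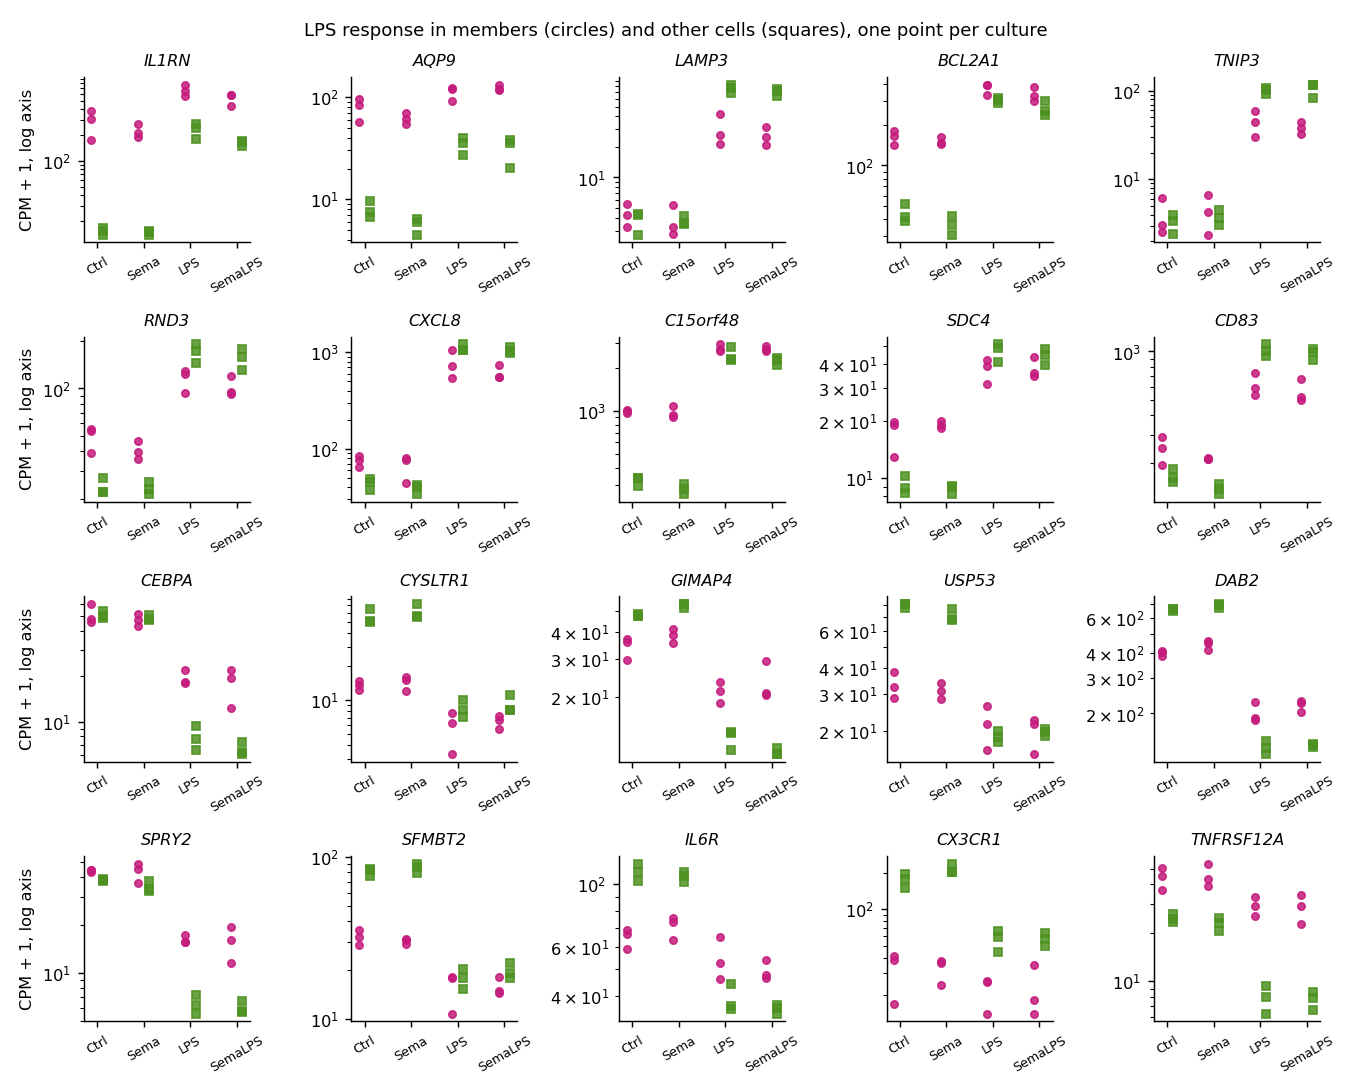
Level of the 20 named genes (CPM plus 1, log axis) in Ctrl, Sema, LPS and SemaLPS, with circles for members and squares for other cells, 1 point per culture. IL1RN in members starts at 173 to 383 CPM in Ctrl, where other cells start at 12.9 to 15.6.

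No gene passed the test for the inhibitor within the members. Of 11361 genes, 0 (0%) had an edgeR adjusted p under 0.05 for Sema against Ctrl, with 525 at an unadjusted p under 0.05 and 0 with DESeq2. For SemaLPS against LPS the count was 0 (0%), with 548 and 0. In other cells 3 of 15155 genes (0.0198%) passed for Sema against Ctrl. They were HES1, a target of Notch (log2 change −0.90), the phosphatase DUSP1 (−0.44) and EGR3 (−0.78). In members these differences were −0.88, −0.15 and −0.43 and did not pass. Of the 5 Notch targets tested in members none passed. LFNG, a sugar transferase that modifies Notch, had 13.3 CPM in members and 6.88 in other cells and a difference of −0.35 for Sema against Ctrl. HES1 passed again in other cells for SemaLPS against LPS (−0.98), where it was 0.16 in members, and its inhibitor difference between members and other cells did not pass (adjusted p = 0.821).

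The inhibitor difference between members and other cells passed for 4 of 14673 genes (0.0273%), all higher in members, with 993 at an unadjusted p under 0.05. They were CD52, PLA2G7, PLAUR and CD9, which were named for passing, after their values were seen. CD52, a small glycoprotein of leukocyte membranes, was 398, 372 and 542 CPM in members of Ctrl, 479, 438 and 508 in Sema, 285, 331 and 324 in LPS and 390, 512 and 393 in SemaLPS. In other cells it was 182, 230 and 248, then 162, 200 and 183, then 147, 195 and 162, then 115, 155 and 159 CPM. Its changes were 0.12 and 0.48 in members and −0.28 and −0.23 in other cells, without and with LPS, none of which passed alone. The difference was 0.56 ± 0.08 (adjusted p = 0.00405).

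PLA2G7, a secreted phospholipase of macrophages, had changes of 0.07 and 0.21 in members and −0.20 and −0.08 in other cells (difference 0.27 ± 0.04, adjusted p = 0.00405). PLAUR had 0.01 and −0.08 against −0.30 and −0.37 (0.30 ± 0.05, adjusted p = 0.00601). CD9 had −0.06 and 0.05 against −0.31 and −0.27 (0.29 ± 0.05, adjusted p = 0.0488). The estimates for all 4 were thus lower with the inhibitor in other cells by 0.08 to 0.37, while in members they lay between −0.08 and 0.48. None of the 4 passed within the members, or for Sema against Ctrl in other cells. CD9 lost the call without Ctrl 1, Ctrl 2, Sema 1, Sema 3, SemaLPS 1 or SemaLPS 2, while the other 3 kept it without any single culture. All 4 lost it against other cells matched in UMIs, where 1 gene passed in all and PLAUR had a difference of 0.15. The matched other cells were only as many as the members, so fewer counts entered that fit. With other cells thinned to the members' total UMIs 5 genes passed, 4 higher and 1 lower. The count was 15 without Ctrl 3, 9 without LPS 1, 14 without LPS 2, 7 without LPS 3 and 7 without Sema 2.

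**Figure D5:**
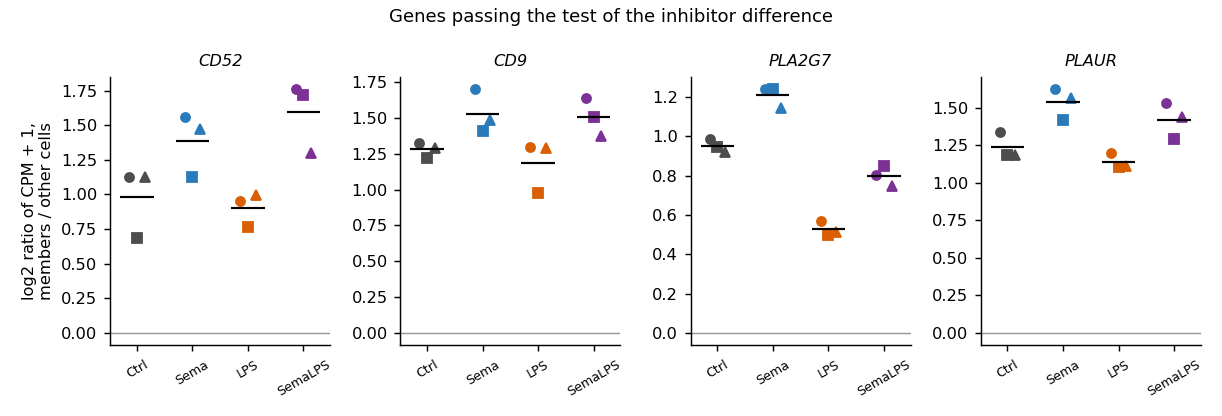
Log2 ratio of members over other cells of the same culture for CD52, CD9, PLA2G7 and PLAUR in cultures without and with semagacestat, at both levels of LPS, with marker shapes for the culture numbers and lines for means. The differences of the ratios were 0.56, 0.29, 0.27 and 0.30.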

How the data were processed

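Single-cell 3' RNA and hashtag UMI counts were deposited per cell barcode, without normalization per the file headers, which name Cell Ranger 6.0.1. Per the submitters' processing notes, Cell Ranger 3.0.2 and Seurat 4.1.1 were used with the build hg38. The titles and the library types of the labels name RNA and hashtag libraries in opposite ways, and the content of the matrices was used. A cell was assigned to the culture of its top hashtag if that had at least 30 UMIs and 3 times the next (24662 of 28943 barcodes), and was then filtered on detected genes (1000 or more, 24305) and on mitochondrial UMIs (10% or less, 16937). Counts of members and of other cells were summed per culture over both libraries. CPM are counts per 1000000 of such a sum. Because 3' UMIs are counted, gene length does not enter.

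Sums were fitted with edgeR 4.0.16 (R 4.3.3, limma 3.58.1; TMM, filterByExpr, quasi-likelihood F test), all cultures together, and p-values were adjusted by Benjamini-Hochberg over all genes tested, with a threshold of 0.05. Counts of calls leave out the 7 genes of the rule. Members and other cells were compared in 1 fit of 24 sums with the culture as a block. DESeq2 1.42.0 was an alternative. Each standard error was derived from the log2 change and its F value. Shares were compared by exact permutation (scipy 1.17.1). Scripts were tested on simulated counts. Other alternatives were filters, thinning, single libraries, matched depth and cultures left out.

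Members and 20 gene lists plus 11 marker lists were chosen with earlier results of these data known. Named genes are the 10 with the largest rise and fall past the threshold without overlap and at 20 CPM, and leading members of the lists. Same-numbered cultures correlated by −0.0733 to 0.335 over 5186 genes in deviations of members, and cultures of other numbers and conditions by −0.318 to 0.217. Numbers were not taken as pairs in the main fits. Counts with the number as a block, which differ for the inhibitor, are given with the dependence on processing below. Near-identical gene copies such as CCL3L1 and CCL4L2 were not described. A few genes of the lists are left out of the text.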

Additional observations from a re-analysis of the deposited data

Results flagged for a closer look

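The LPS response differed between members and other cells of the same cultures for 2238 genes, by the test of the difference itself with edgeR (adjusted p under 0.05). With other cells thinned to the members' total UMIs 1540 passed. With other cells matched in UMIs per cell 761 passed. The matched other cells were only as many as the members, so the drop to 761 does not measure depth alone. The part of depth in the results was not tested. The inhibitor response differed for 4 genes by the same kind of test. The log2 differences, members minus other cells, were 0.56 for CD52, 0.27 for PLA2G7, 0.29 for CD9 and 0.30 for PLAUR, with adjusted p = 0.00405, 0.00405, 0.0488 and 0.00601. Adjusted p ranged from 0.000122 to 0.0182 for CD52, 0.00314 to 0.0199 for PLA2G7, 0.00312 to 0.0307 for PLAUR and 0.00996 to 0.136 for CD9 when each culture was left out in turn. All 4 lost the call against other cells matched in UMIs, where 1 gene passed, and the count was 0 at a hashtag ratio of 10 and 1 in each library alone. It was 5 with other cells thinned to the members' total UMIs. With DESeq2 11 were higher and 6 lower, and without the tenth of cells with the most UMIs 14 were higher and 3 lower. Beside these, members had more UMIs per cell in 12 of 12 cultures.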

How the results depend on the processing

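Limits come first: a culture gave 58 to 198 members, so changes below the spread of 3 such sums were not detectable, and the rule favours deeper cells. The count for LPS against Ctrl in members (2871) was 4666 with at least 3 genes of the rule and 1650 with 5, 1037 at up to 8% mitochondrial UMIs, 1766 in library 1 alone, 1741 in library 2 alone and 1167 after thinning. SemaLPS against Sema (2682) gave 4359, 1431, 1016, 1646, 1610 and 994 under these settings, and 4051 at up to 20% mitochondrial UMIs. The difference of the LPS responses (2238) gave 822 at up to 8%, 1126 and 919 in the single libraries, 761 with other cells matched in UMIs, 1262 after thinning and 1268 without the tenth of cells with the most UMIs. Of its calls 40.9% were higher in members, against 53.9% with matched UMIs, 56.9% with 3 and 51.8% with 5 genes of the rule, 56.2% at a hashtag ratio of 10, 57.1% at up to 20% mitochondrial UMIs, 51.5 and 52.6% in the single libraries and 40.6 to 56.9% with cultures left out. Sema against Ctrl (0) gave 1 with 3 genes of the rule, 1 at up to 8%, 6 in library 1, 71 without the filter on low counts and 4 without the deepest cells, and SemaLPS against LPS (0) gave 1 at up to 8% and 53 without the filter. The inhibitor difference (4) gave 17 with DESeq2, 9 with 3 and 2 with 5 genes of the rule, 0 at up to 20% mitochondrial UMIs, 1 in each library, 123 without the filter, 1 with matched UMIs, 1 after thinning, 0 with a hashtag ratio of 10 and 17 without the deepest cells. With the replicate number as a block the counts were 4 for Sema against Ctrl, 2 for SemaLPS against LPS and 36 for the inhibitor difference (29 higher and 7 lower), and the inhibitor difference of shares stayed at −0.96 points (p = 0.281, permutation within pairs). Of 12 cultures 10 correlated best with their own number. The block moved no other count by over 1.5 times. Genes 2-fold higher in every culture numbered 95 with at least 5 CPM (56 with 20). The share difference SemaLPS minus LPS turned to 0.34 points at a hashtag ratio of 10, 0.33 at up to 8% and 0.088 in library 1. Leaving out each culture in turn gave 2259 to 2969 for LPS against Ctrl, 1617 to 2023 for the difference of LPS responses, 0 to 0 for Sema against Ctrl, 0 to 1 for SemaLPS against LPS, 2070 to 2725 for SemaLPS against Sema, and 3 to 15 for the inhibitor difference. Shares then ranged over −5.54 to −2.41 points (LPS minus Ctrl), −3.86 to −0.58 (Sema minus Ctrl), −1.55 to 1.30 (SemaLPS minus LPS), −3.24 to −0.39 (SemaLPS minus Sema) and −1.96 to −0.28 (inhibitor), and the 2-fold count over 55 to 62. Single genes that turned were MT1M (−0.83 to 5.17 for LPS against Ctrl with cultures left out), IFIT3 (0.31) and IFIT2 (0.035) at up to 8%, CKB (−0.033) after thinning and PLAUR (0.052) without the deepest cells in the difference of LPS responses, and ADAMDEC1 (0.058 at up to 8%) and FABP4 (0.37 in library 2) in SemaLPS against Sema. The cause of these changes was not tested. The 20 named genes of LPS against Ctrl kept their call in all 25 alternatives. Among those of the response difference 18 of 20 did in all 28, while LAMP3 lost it in 2 and TNIP3 in 3, with matched UMIs in both. A limit of 5% mitochondrial UMIs left 12 members and was not run.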

Other observations

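SOCS1, an inhibitor of cytokine signalling that is induced by interferon and LPS, was chosen here after its values were seen. In members it was 3.06, 4.42 and 2.46 CPM in Ctrl cultures 1 to 3, 2.69, 2.97 and 3.21 in Sema, 3.91, 2.94 and 2.31 in LPS and 4.63, 2.31 and 2.77 in SemaLPS. In other cells it was 0.237 to 0.604 CPM in the 6 cultures without LPS and 4.94 to 6.56 in the 6 with it. Members thus lay above other cells in every culture without LPS and below them in every culture with it, at low counts, and the difference of the LPS responses was −3.60 on the log2 scale (edgeR adjusted p = 6.0e-10).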
